A study of Homo sapiens with 2 samples.

Results

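The DMSO library of T24/R cells was described on its own, gene by gene. It is 1 of 2 samples in the series, and it was chosen by its label as the solvent control, with all 58884 gene IDs of its count file as members. T24/R is a human line that the labels describe as adherent, epithelial and from the urinary bladder, and the series title places it with chemoresistant urothelial carcinoma without naming the drug. The cells were grown in RPMI 1640 with serum and received DMSO for 6 h, the vehicle for THZ1, a covalent inhibitor of the transcription kinase CDK7. The other sample received THZ1 and is not compared here. No parental line and no replicate culture entered, so all values describe 1 library of 1 culture.

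The urothelium is the stratified lining of the bladder. Its surface umbrella cells carry uroplakin plaques and the keratin KRT20, its basal cells carry KRT5 and the transcription factor TP63, and the regulators PPARG, GATA3, FOXA1 and ELF3 drive luminal differentiation. Bladder carcinomas are sorted by the same genes into luminal, basal and squamous, stroma-rich and neuronal classes. T24, the line that shares the name, comes from a transitional cell carcinoma and is a textbook source of activated HRAS.

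The library held 18445831 counts. A gene is called detected here at 10 or more counts, which is 0.542 CPM (counts scaled to a total of 1000000). By that rule 14579 of the 58884 genes were detected, and 11656 of 19945 protein-coding genes, or 58.4%. That last share is the one to set beside the detected members of each gene list below. Another 5985 protein-coding genes had 0 counts, and at this depth 0 allows up to 3 counts, or 0.163 CPM, as a one-sided 95% limit. Levels are compared between genes as TPM, that is counts divided by exonic length and scaled to that same total. Intervals are exact two-sided 95% Poisson intervals, which reach 0.200 CPM at 0 counts, and cover counting error only: several reads may stem from 1 molecule, and variation between cultures was not measured.

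Nuclear protein-coding genes took 88.8% of counts. The 13 mRNAs of the mitochondrial genome took 6.60% (exact Clopper-Pearson interval 6.59 to 6.61%), and mitochondrial rRNA and tRNA genes took 2.15%. Long noncoding genes took 1.72% and pseudogenes 0.678%. Per exonic length the mitochondrial share was far larger: mitochondrial mRNAs made up 25.4% of all TPM and mitochondrial rRNA and tRNA 6.63%. Every nuclear TPM printed here would be 1.47 times higher on a scale without the mitochondrial genes. The median detected nuclear protein-coding gene stood at 19.9 TPM, with quartiles of 6.73 and 50.9 TPM. Of these 11643 genes, 595 were under 1 TPM, 6519 lay between 10 and 100 TPM, and 42 exceeded 1000 TPM.

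**Figure D1:**
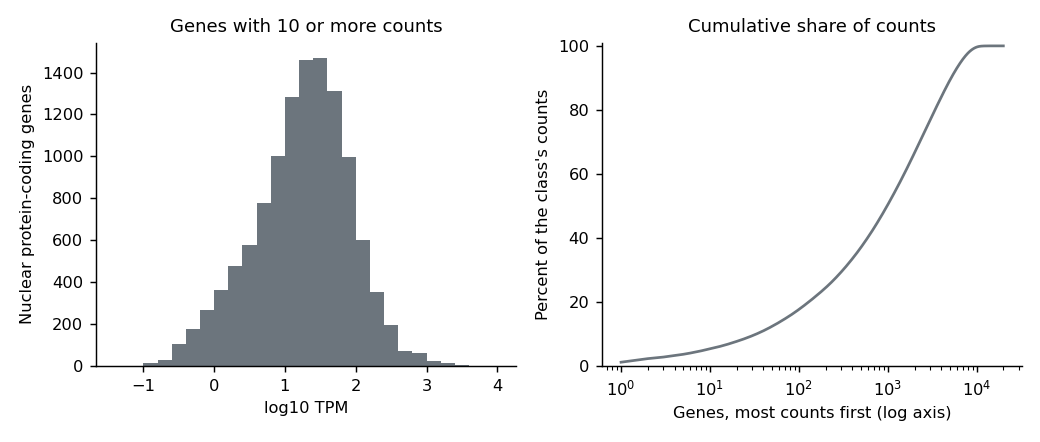
Left, histogram of log10 TPM for the 11643 nuclear protein-coding genes with 10 or more counts. Right, percent of the counts of nuclear protein-coding genes held by the most abundant genes (log axis). The histogram peaks between 10 and 100 TPM, and 982 genes hold 50% of the counts.

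Chaperone, translation, cytoskeleton and glycolysis genes stood at the top. HSP90AA1, the inducible cytosolic HSP90 chaperone, had the most counts of any nuclear gene (199349 counts, 10807 CPM, 7247 TPM, interval 7216 to 7279). EEF1A1, the elongation factor that brings tRNA to the ribosome, followed with 183289 counts and 5879 TPM. Beta-actin ACTB stood at 4360 TPM, the glycolytic enzyme GAPDH at 3916 TPM and the iron storage gene FTL at 3520 TPM. ITGB1, the integrin beta-1 chain, had 76536 counts and 2429 TPM, in the same range as the chaperone HSPA8 with 2512 TPM. The intermediate filament gene VIM had 63269 counts and 2340 TPM. CCN1, a secreted matrix protein, reached 1825 TPM, and LDHA, which makes lactate, 1666 TPM. The 10 most abundant nuclear protein-coding genes held 4.79% of all counts, the first 100 held 15.7% and the first 1000 held 44.7%. EEF1A1, ACTB, GAPDH and FTL have named pseudogene copies (49, 11, 65 and 16), and reads shared with those can be split or lost.

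MALAT1, a nuclear-retained RNA, led the long noncoding genes with 112244 counts (6085 CPM, 2426 TPM). TUG1 followed with 9518 counts, NEAT1, the scaffold of paraspeckles, with 7548, and NORAD, which binds Pumilio proteins, with 4807. The snoRNA hosts SNHG29, GAS5 and SNHG1 had 4911, 3604 and 3300 counts. The intergenic RNAs LINC03061 and LINC00707 had 4607 and 4524 counts, and FGD5-AS1 had 3086. Per length the order changed: NEAT1, a long transcript, stood at 63.3 TPM, against 249 TPM for SNHG29, 189 TPM for GAS5 and 179 TPM for TUG1.

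The urothelial label was checked against 16 defining markers, of which 7 were detected (43.8%). The uroplakins, which build the umbrella cell plaque, were close to absent: UPK1A had 10 counts, UPK3B 1, and UPK1B, UPK2 and UPK3A 0. PPARG had 1 count, ELF3 0, KRT20 0 and KRT19 1. The basal markers were low too, with 3 counts for KRT5 and 61 counts (1.56 TPM, 1.19 to 2.01) for TP63. GATA3 stood at 25 counts (1.39 TPM) and FOXA1 at 129 counts (6.18 TPM, 5.16 to 7.34). The simple-epithelium keratin KRT18 was the highest of the 16 with 696 counts (41.3 TPM, 38.3 to 44.4). Its partner KRT8 had 77 counts (2.14 TPM). KRT8 has 51 named pseudogenes, which together held 252 counts, more than KRT8 itself, and KRT18 has 67, with 38 counts. How many of those reads belong to the parent genes was not tested. By these markers the library goes against a differentiated urothelial identity, and it is called T24/R throughout.

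Luminal markers were detected in 16 of 30 cases (53.3%, near the 58.4% of all protein-coding genes). Their median was 0.757 TPM, against 3.14 TPM over all protein-coding genes. The highest were XBP1, a regulator of the secretory pathway, at 79.5 TPM, KRT18 at 41.3 TPM and the transcription factor KLF5 at 21.6 TPM. TBX2 and TBX3 stood at 6.46 and 3.46 TPM. Among the luminal receptors, ERBB2 stood at 8.56 TPM (463 counts), FGFR3 at 1.46 TPM (37 counts) and ERBB3 at 0.675 TPM (32 counts).

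Basal and squamous adhesion genes were detected in 4 of 8 cases, with a median of 12.6 TPM. CD44, the hyaluronan receptor, had 27599 counts (526 TPM, 520 to 533). The hemidesmosome integrins ITGA6 and ITGB4 stood at 179 and 61.7 TPM, and LAMB3, a chain of their laminin ligand, at 25 TPM. The other members were near 0, with 7 counts for the desmosomal cadherin DSC3, 2 for DSG3 and 1 each for DSC2 and P-cadherin CDH3. Among basal and squamous keratins 1 of 10 was detected, KRT15 with 10 counts, and KRT14, KRT6B, KRT16 and KRT13 had 0. The cornified envelope genes IVL, SPRR1A, SPRR1B and SPRR3 also had 0 counts, as did the squamous serpins SERPINB3 and SERPINB4. Of the transcription factors, STAT3 stood at 48.3 TPM and TFAP2A at 13.7 TPM. In all, 12 of 35 members were detected, with a median of 0.0306 TPM.

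Mesenchymal markers ranged from abundant to absent. VIM stood at 2340 TPM, AXL at 290 TPM, N-cadherin CDH2 at 152 TPM and fibronectin FN1 at 124 TPM. SPARC, a collagen-binding matrix protein, stood at 80.9 TPM. Of the transcription factors, ZEB1 stood at 55.3 TPM (53.1 to 57.5), FOXC2 at 20.3, ZEB2 at 11.1 and SNAI2 at 10.4 TPM, whereas SNAI1, TWIST1, TWIST2 and PRRX1 had 0 counts. The fibrillar collagens in this list were nearly absent, with 30 counts for COL1A1, 5 for COL3A1 and 0 for COL1A2 and COL5A1. Altogether 12 of 23 members were detected (52.2%, near the 58.4% of all protein-coding genes), with a median of 0.583 TPM. In GENCODE 29, 63.0% of the coding bases of VIM lie in exons of another gene, all on the opposite strand.

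Junction genes were uneven within each role. Of the catenins, which link cadherins to the cytoskeleton, CTNNA1 stood at 117 TPM, CTNNB1 at 95.1 TPM and CTNND1 at 3689 counts, whereas JUP, which encodes gamma-catenin, stood at 11.7 TPM (304 counts). E-cadherin CDH1, their epithelial partner, had 2 counts, and EPCAM had 0. N-cadherin was the highest of 23 cadherins, and the next were CDH18 at 14.7 TPM and CDH12 at 8.82 TPM, with 7 cadherins detected. At tight junctions, CLDN1 stood at 168 TPM (162 to 174), TJP1 at 39.9 and OCLN at 23.3 TPM, while CLDN3, CLDN7 and CLDN8 had 0 counts. CLDN11 stood at 59.6 TPM and CLDN12 at 18.4 TPM. In desmosomes PERP stood at 66.6 TPM, PKP2 at 22.5 TPM and EVPL at 707 counts, whereas desmoplakin DSP and PKP1 had 0 counts and DSG2 had 2. Of 11 epithelial regulators 2 were detected, GRHL1 with 121 counts (2.90 TPM) and the splicing regulator ESRP2 with 11 counts. Its relative ESRP1 had 0 counts and GRHL2 had 1. Of 49 junction genes, 21 were detected (42.9%).

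Keratins, which form the filaments of epithelia, were detected in 7 of 52 cases (13.5%), and 41 had 0 counts. KRT18 at 41.3 TPM, KRT10 at 19.4 TPM (16.9 to 22.2) and KRT80 at 10.1 TPM led. The remaining 4 detected keratins lay between 0.270 and 2.14 TPM. VIM, an intermediate filament gene outside the keratins, stood at 2340 TPM. Mucins were detected in 2 of 19 cases, MUC1 with 18 counts and MUC6 with 12.

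Other cell types gave little signal. Of the leukocyte markers 0 of 16 were detected, with 14 counts in all and 0 for CD3E and LYZ. Hepatocyte markers had 0 counts in all 8 members, and erythroid markers 2 counts in 8. Among endothelial markers, CDH5, KDR and ERG had 0 counts and PECAM1 had 1, but the junction protein gene ESAM had 876 counts (57.2 TPM, 53.5 to 61.2). Fibroblast and pericyte markers were detected in 3 of 11 cases, LUM with 34 counts, RGS5 with 48 and COL1A1 with 30. Of 10 neural markers, SYT1, a synaptic vesicle calcium sensor, stood at 22.3 TPM and MBP, a myelin protein gene, at 4.55 TPM (444 counts), and the remaining 8 had 0 counts. Of 9 kidney and Mullerian markers, the regulator PAX2 stood at 4.74 TPM, CUBN had 10 counts and PAX8 6, and the remaining 6 had 0. Of the neuronal subtype markers 7 of 19 were detected. APLP1 stood at 45.6 TPM and ENO2 at 42.3 TPM, while CHGB, INSM1 and NEUROD1 had 0 counts. Smooth muscle markers reached 3.80 TPM at most, in TAGLN.

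**Figure D2:**
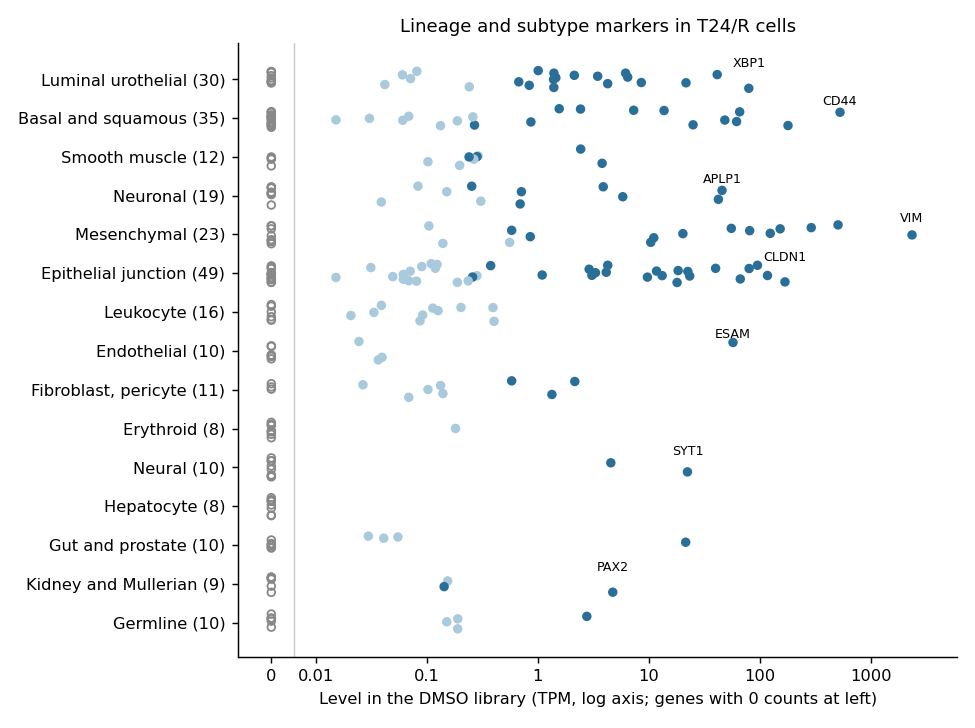
Level of each marker (TPM, log axis) by list, with the number of members in brackets. Dark points have 10 or more counts, pale points 1 to 9, and open circles 0. The highest point is named in most lists where it has 100 or more counts, and VIM at 2340 TPM and CD44 at 526 TPM stand to the right of XBP1 at 79.5 TPM, the highest luminal marker.

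Promoter sequence is shown for 4 genes that mark these contrasts: VIM and AXL, a filament gene and a receptor gene at high level, GCLM, which makes the modifier subunit of the glutathione-synthesis enzyme, and KRT20, an umbrella cell keratin with 0 counts. The stretches are credited to RefSeq (GRCh38.p14), run 5′ to 3′ on the gene's strand, and cover bases 150 to 31 before the start. Capitals mark CG dinucleotides, the targets of DNA methylation.
VIM (chr10:17228091-17228210, plus strand): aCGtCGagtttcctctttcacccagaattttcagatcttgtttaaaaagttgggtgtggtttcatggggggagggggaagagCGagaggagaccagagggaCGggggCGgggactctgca
AXL (chr19:41219073-41219192, plus strand): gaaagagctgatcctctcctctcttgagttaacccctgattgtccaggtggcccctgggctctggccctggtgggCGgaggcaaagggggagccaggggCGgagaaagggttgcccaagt
GCLM (chr1:93909461-93909580, minus strand): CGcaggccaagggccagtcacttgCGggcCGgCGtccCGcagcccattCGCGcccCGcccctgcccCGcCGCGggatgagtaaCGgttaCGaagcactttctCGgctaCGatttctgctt
KRT20 (chr17:40885273-40885392, minus strand): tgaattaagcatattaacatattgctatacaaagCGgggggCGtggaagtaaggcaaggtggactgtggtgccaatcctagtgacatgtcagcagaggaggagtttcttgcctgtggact

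GCLM held 15 CG dinucleotides in its 120 bases, VIM 5, and AXL and KRT20 2 each. Over the whole 300 bases around the start, the ratio of observed to expected CG was 1.10 for GCLM, 0.584 for VIM, 0.216 for AXL and 0.138 for KRT20, so a highly expressed gene and a gene at 0 counts both had CG-poor promoters. Across the 9572 detected genes with a RefSeq promoter (82.2% of detected nuclear protein-coding genes), the median ratio was 0.851, and 85.1% had a ratio of 0.6 or more. The share was 89.0% of 5458 promoters at 10 to 100 TPM and 93.1% of 1137 at 100 TPM or more. The GC box GGGCGG, on either strand, was in 71.0% of detected promoters and 59.4% of all 15323 promoters of this length. The ETS core CCGGAAG, on either strand, was in 20.4% and 14.3%. The TATA box TATAAA, on the gene's strand between 40 and 19 bases before the start, was in 1.54% and 3.72%. Fewer than 80% of undetected genes and of detected genes under 10 TPM had a promoter in the table, so the check across those lower levels is void. The shares over all promoters rest on 76.9% of nuclear protein-coding genes, which is also under 80%, so they describe the table and no difference from the detected genes is read from them.

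Receptor tyrosine kinases, which carry growth factor signals across the membrane, were detected in 24 of 58 cases (41.4%, against 58.4% of all protein-coding genes). AXL, the receptor for GAS6, had 7829 counts (290 TPM, 283 to 296; chromosome 19, 41219203 to 41261766, GRCh38). EPHA2, an ephrin receptor, followed at 183 TPM (177 to 188) and EGFR at 65.8 TPM (63.8 to 67.8). MET, the receptor of hepatocyte growth factor, and RYK, a Wnt receptor, stood at 37.1 and 37.0 TPM with overlapping intervals. The order depends on the length used: with each gene's median transcript length EPHA2 stood at 247, AXL at 159, EGFR at 100 and MET at 92.6 TPM. MERTK, from the AXL family, stood at 20.2 TPM. From LMTK2 at 13.3 TPM down to DDR2 at 5.65 TPM each receptor overlapped its neighbour in the order, and these include FGFR1 at 11.6, INSR at 10.1, TYRO3 at 8.65, ERBB2 at 8.56 and IGF1R at 7.99 TPM. In all, 18 receptors of several families had 0 counts, among them KDR, FLT1, PDGFRA, CSF1R, FLT3, FGFR2, EPHA4, RET and ALK. PDGFRB, FLT4 and ERBB4 had 1 each.

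Growth factor ligands were detected in 27 of 42 cases (64.3%, near the 58.4% of all protein-coding genes), with a median of 3.01 TPM. PROS1, which encodes protein S, a ligand of TYRO3 and MERTK, was highest at 114 TPM (111 to 118), and the AXL ligand gene GAS6 had 107 counts. Of the EGFR ligands, HBEGF stood at 60.2 TPM (56.5 to 64.2), EREG at 19.1, AREG at 11.2 and TGFA at 9.30 TPM, while EGF itself had 2 counts. FGF2 stood at 60.1 TPM, FGF1 at 26.3 TPM, VEGFB at 33.3 TPM, PDGFC at 20.7 TPM and VEGFC at 15.1 TPM. BDNF, a neurotrophin, stood at 28.5 TPM, whereas its receptor NTRK2 had 2 counts. HGF, IGF1, IGF2 and GDNF had 0 counts.

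**Figure D3:**
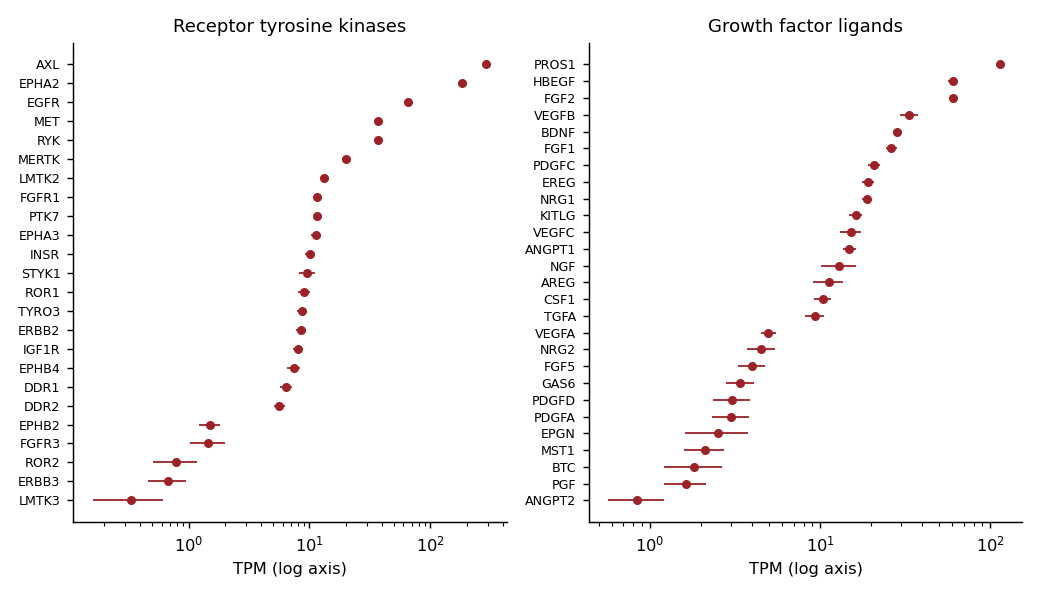
Receptor tyrosine kinases (left) and growth factor ligands (right) with 10 or more counts, in order of TPM (log axes), with exact 95% Poisson intervals as bars. On this length scale AXL at 290 TPM and EPHA2 at 183 TPM lead the receptors, and PROS1 at 114 TPM leads the ligands.

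Cytokine receptors were detected in 26 of 36 cases (72.2%). IL6ST, the shared signalling chain of the interleukin-6 family, stood at 187 TPM (183 to 191) and its partner OSMR at 39.0 TPM, while the interleukin-6 chain IL6R had 13 counts. IL13RA1 stood at 81.8 TPM and IL4R at 18.7 TPM. The interferon receptor chains IFNAR1, IFNGR1 and IFNGR2 stood at 70.9, 43.0 and 39.6 TPM. IFNAR2, the partner of IFNAR1, had 35 counts, and 87.1% of its coding bases lie in another gene's exons. Of 29 TNF receptors 16 were detected. TNFRSF12A, the receptor of TWEAK, led at 149 TPM, with TNFRSF1A at 63.5 TPM, the TRAIL death receptors TNFRSF10B and TNFRSF10A at 45.3 and 42.2 TPM, and FAS at 21.9 TPM.

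Nuclear receptors, transcription factors that bind hormones and lipids, were detected in 33 of 48 cases (68.8%, against 58.4% of all protein-coding genes). The circadian repressor NR1D2 stood at 62.0 TPM (59.2 to 64.8), the glucocorticoid receptor NR3C1 at 52.1 TPM (50.1 to 54.2) and the orphan receptor NR2C2 at 41.0 TPM. With median transcript length this order turned, to 80.9 TPM for NR3C1, 73.7 TPM for NR2C2 and 49.5 TPM for NR1D2. PPARD stood at 21.0 TPM, against 1 count for PPARG, the urothelial regulator of the same family. ESR1, an estrogen receptor, had 51 counts (0.702 TPM) and PGR 0.

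G protein-coupled receptors were sparse, with 78 of 341 detected (22.9%) and 204 at 0 counts. The adhesion receptor ADGRL2 stood at 124 TPM (121 to 128) and ADGRG6 at 43.1 TPM. The Wnt receptor FZD6 stood at 83.1 TPM and FZD5 at 12.2 TPM, while SMO, the Hedgehog signal transducer, had 76 counts (3.36 TPM). The adenosine receptor ADORA2B stood at 34.0 TPM (30.9 to 37.2), the histamine receptor HRH1 at 19.1 TPM and the bombesin-family receptor GRPR at 21.4 TPM. The orphan receptors GPR107 and GPR137B stood at 47.0 and 32.8 TPM.

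Of the surface antigens used as antibody targets, SLC39A6, a zinc transporter, stood at 228 TPM, EGFR at 65.8 TPM and F3, tissue factor, at 13.3 TPM. NECTIN4, the target of an antibody drug used in urothelial carcinoma, had 0 counts. Among immune checkpoint genes, NT5E, which makes adenosine from AMP, stood at 244 TPM (237 to 250). CD274, which encodes PD-L1, stood at 46.6 TPM (43.8 to 49.6), the poliovirus receptor gene PVR at 40.7 TPM, the macrophage signal CD47 at 29.8 TPM and PDCD1LG2 at 20.7 TPM. IDO1 had 0 counts.

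Solute carriers, which move small molecules across membranes, were detected in 199 of 379 cases (52.5%, near the 58.4% of all protein-coding genes). They held 1.16% of all counts. SLC25A5, the mitochondrial ADP and ATP exchanger, was highest at 888 TPM (867 to 909). SLC7A11, the cystine importer that feeds glutathione synthesis, had 37209 counts (736 TPM, 729 to 744; chromosome 4, 138164097 to 138242349, minus strand, GRCh38), and it ranked among the 25 nuclear genes with the most counts. With median transcript length it stood at 370 TPM, below SLC38A2 at 395 TPM. Its heavy chain SLC3A2 stood at 108 TPM. The glutamine carriers SLC38A2 and SLC38A1 stood at 159 and 147 TPM, SLC1A5 at 66.2 TPM and the leucine carrier SLC7A5 at 63.8 TPM. The lactate carrier SLC16A1 stood at 175 TPM, its chaperone BSG at 203 TPM and the glucose carrier SLC2A1 at 50.3 TPM, whereas the lactate exporter SLC16A3 stood at 6.28 TPM.

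Metal carriers were detected in 13 of 15 cases. Besides SLC39A6, the transferrin receptor TFRC stood at 140 TPM, the zinc carriers SLC39A7 and SLC30A7 at 116 and 107 TPM, and the copper importer SLC31A1, which also takes up cisplatin, at 61.6 TPM (58.7 to 64.6). The copper exporting ATPases ATP7A and ATP7B had 995 and 207 counts, and the iron exporter SLC40A1 had 0. The phosphate carrier SLC20A1 stood at 142 TPM and the bicarbonate carrier SLC4A7 at 122 TPM. Among nucleoside carriers, which take up gemcitabine, SLC29A1 stood at 17.6 TPM and SLC28A1 and SLC28A3 had 0 counts.

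ABC proteins were detected in 30 of 48 cases (62.5%, near the 58.4% of all protein-coding genes). The highest is no transporter: ABCE1, a ribosome recycling factor, stood at 361 TPM (354 to 367), and the translation factor ABCF1 at 91.4 TPM. Of the membrane transporters, the peroxisomal ABCD3 stood at 91.8 TPM, the mitochondrial ABCB10 at 53.2 TPM, and ABCA3 at 34.0 TPM. Of the drug exporters, ABCC4 stood at 41.5 TPM (39.6 to 43.4), ABCC1 at 34.4 TPM (32.6 to 36.3), ABCC5 at 13.2, ABCG2 at 5.98 and ABCC2 at 5.19 TPM. ABCB1, the P-glycoprotein gene, had 0 counts and ABCC3 had 1.

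**Figure D4:**
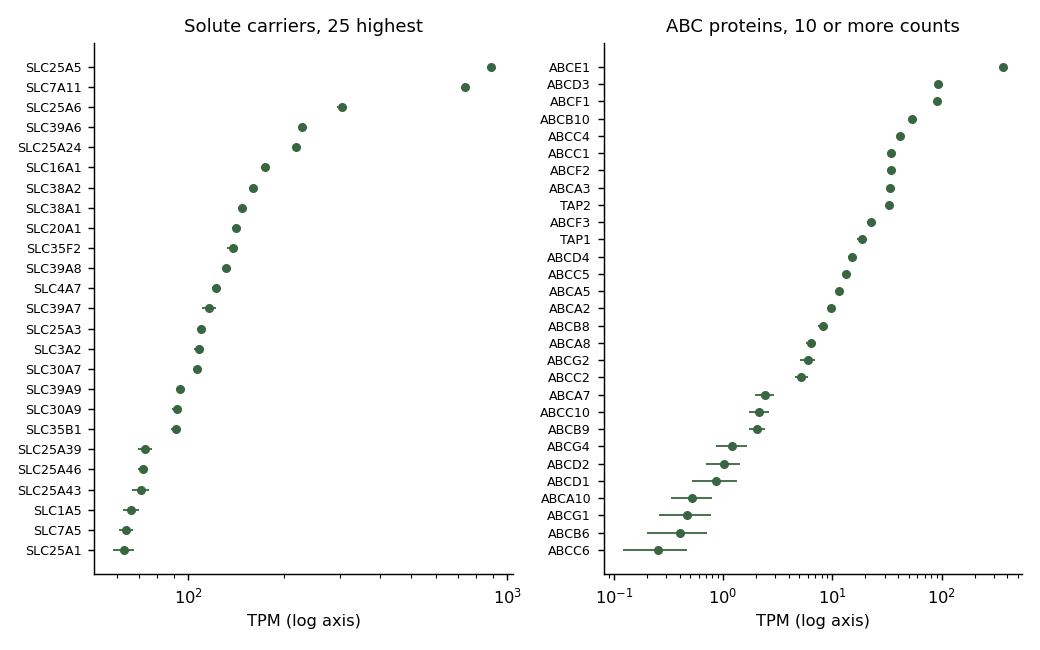
The 25 solute carriers with the highest TPM (left) and 29 of the 30 ABC proteins with 10 or more counts (right), on log axes with exact 95% Poisson intervals. SLC25A5 at 888 TPM and SLC7A11 at 736 TPM lie above the other carriers on this length scale, and ABCE1 at 361 TPM above the other ABC proteins.

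Ion channels were detected in 85 of 279 cases (30.5%). The volume-regulated anion channel was complete in its main subunits, with LRRC8A at 40.7, LRRC8B at 56.5, LRRC8C at 42.6 and LRRC8D at 61.6 TPM, and 10 counts for LRRC8E. The lipid scramblase ANO6 stood at 77.5 TPM, the mechanically gated PIEZO1 at 49.7 TPM, the lysosomal MCOLN3 at 51.2 TPM and the calcium-gated potassium channel KCNN4 at 23.6 TPM. Of 24 sodium and acid-sensing channel genes 7 were detected, the highest at 8.33 TPM. Among the epithelial sodium channel genes, SCNN1A had 4 counts and SCNN1B and SCNN1G had 0. Of 12 aquaporins 2 were detected, AQP11 with 34 counts and AQP3 with 10.

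Redox genes formed the highest group among the drug metabolism lists. Of 18 quinone, thioredoxin, glutathione and fluoropyrimidine genes, 15 were detected, with a median of 99.9 TPM. Thioredoxin TXN stood at 975 TPM (950 to 1000 TPM), the peroxide scavenger PRDX1 at 773 TPM, thioredoxin reductase TXNRD1 at 662 TPM and GCLM at 615 TPM. NQO1, a quinone reductase, stood at 341 TPM, glutathione reductase GSR at 215 TPM and the catalytic partner of GCLM, GCLC, at 24.9 TPM. Glutathione transferase GSTP1 stood at 264 TPM and GSTO1 at 106 TPM, whereas GSTM1 and GSTA1 had 0 counts. The antioxidant response core TGACNNNGC was sought on either strand in 16 promoters of redox, carrier and drug metabolism genes. TYMS, DPYD, CDA and CES2 are among these 16. The core was in 4 of the 16, those of TXNRD1, GCLM, GSTP1 and GPX2 (11 counts). Among all promoters of this length the share was 14.4%, and no difference is read from it. The promoters of TXN, NQO1, GPX4 and GCLC, among others, did not hold these letters. Only the 300 bases from 250 before the start to 50 after it were searched. Whether the core lies farther away was not tested.

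Aldehyde dehydrogenases were led by ALDH3A2 at 118 TPM and ALDH9A1 at 106 TPM. ALDH1A3 stood at 3.44 TPM and ALDH1A1, which serves as a stem cell marker, had 0 counts. Of 56 cytochromes P450 14 were detected, with CYP20A1 highest at 29.2 TPM, and of 34 glucuronosyl and sulfo transferases 0 were detected.

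Matrix and calcium-binding genes were uneven. The annexin ANXA2 stood at 648 TPM and its partner S100A10 at 351 TPM, which together assemble plasminogen activation at the cell surface. The urokinase receptor PLAUR stood at 46.7 TPM and urokinase PLAU at 20.8 TPM. S100A6 stood at 815 TPM (791 to 841) and S100A11 at 633 TPM, whereas S100A4 had 3 counts and S100A8 0. Of 23 matrix metalloproteinases 6 were detected, with MMP2 at 42.3 TPM and MMP16 at 24.6 TPM, against 1 count each for MMP9 and MMP14. The inhibitor TIMP1 stood at 164 TPM and TIMP3 had 3 counts.

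HOX genes, which record position along the body axis, were detected in 21 of 39 cases (53.8%, near the 58.4% of all protein-coding genes). HOXB7 was highest at 177 TPM (168 to 186), then HOXB9 at 39.5, HOXB6 at 25.5 and HOXD8 at 17.1 TPM. In the HOXA and HOXC clusters the highest members were HOXA5 at 8.61 TPM and HOXC9 at 9.43 TPM. The most posterior group was silent at this depth, with 0 counts for HOXA13, HOXB13 and HOXD13 and 1 for HOXC13. Among genes free of exon overlap the median of the list was 0.0505 TPM, against 0.995 TPM over all 39.

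**Figure D5:**
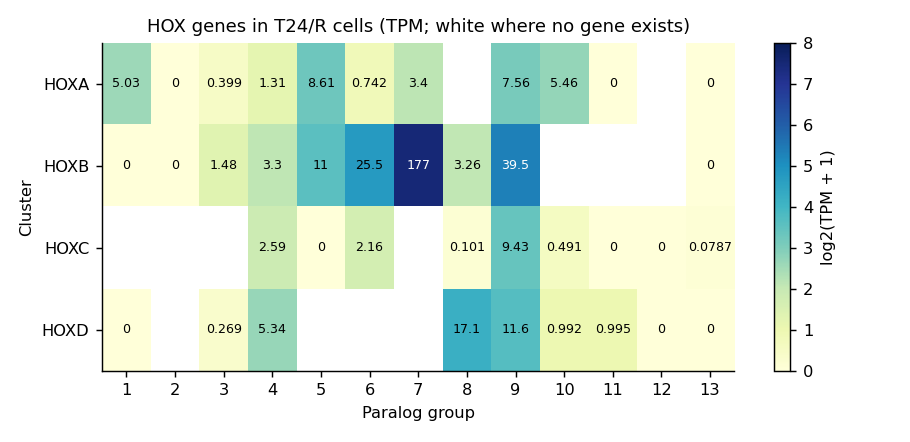
TPM of each HOX gene by cluster (rows) and paralog group (columns), with colour as log2(TPM + 1) and white where a cluster has no such gene. HOXB7 at 177 TPM is the darkest cell, and the group at the far right is at 0 or near it.

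Cancer-testis antigens, normally confined to the germline, were detected in 3 of 104 cases (2.88%), and 90 had 0 counts. The list counts each copy in families such as CT47A, CT45A and GAGE12 as a separate case. How reads that map to several copies were counted is not given, so 0 counts in such copies does not show that they are silent. The neighbours MAGEA12 and CSAG1 on chromosome X were the exceptions, with 690 counts (67.8 TPM, 62.8 to 73.0) and 804 counts (140 TPM, 131 to 151). The third was SSX4B with 11 counts, which has the near-identical copy SSX4 with 8 counts. MAGEA1 had 9 counts and MAGEA3, MAGEA4 and MAGEA6 had 0.

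Among reference genes, cyclin D1 CCND1 stood at 675 TPM (665 to 685), NRAS at 429 TPM and HRAS at 104 TPM (97.8 to 111). RB1 stood at 70.1 TPM, CDKN2A at 29.1 TPM, TERT at 5.27 TPM and FHIT at 2 counts. STAG2, ARID1A, PIK3CA and KDM6A, which are often mutated in bladder cancer, stood at 135, 34.1, 22.2 and 13.8 TPM. Of the housekeeping genes, TBP stood at 36.2 TPM and SDHA had 132 counts. SDHA has 4 named pseudogenes that held 713 counts, more than the gene itself.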

How the data were processed

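Per the labels' protocols, TRIzol RNA from 1 culture of T24/R cells in DMSO went into a KAPA mRNA HyperPrep library. The authors deposited raw read counts per gene. Per the submitters' processing notes, reads went through featureCounts 1.6.0, HISAT2 2.1.0 and Trimmomatic 0.38, with build GRCh38. For annotation release, strand setting and multi-mapped reads, the choice is not given in the sources used here. The library held 18445831 counts, and the 58884 IDs were matched to GENCODE 29 (58611 found, and the rest hold 0.00707% of counts).

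CPM and TPM were computed from the counts and the union of each gene's exons with Python 3.11.15, pandas 2.3.3, numpy 2.4.6 and scipy 1.17.1; figures with matplotlib 3.10.9. With 1 library no test was made. The intervals were tested on simulated Poisson counts, the distribution they assume, so that test checks the computation and not how well they suit this library. Alternatives were other count minimums, transcript lengths, scales without mitochondrial genes, and genes free of exon overlap.

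The members and gene lists were chosen with earlier results of these data known. Name patterns in the lists were corrected after values were seen, to drop genes caught by name alone. The rule names the 25 nuclear protein-coding genes with the most counts, the 20 with the highest TPM, 10 long noncoding genes, the reference genes and up to 6 detected members per role, with short marker lists also at 3 counts or fewer, and leaves out clone names. Some genes that it would name are not reported here. Other genes named, mostly at low counts or with exon overlap, were chosen after their values were seen. Of several RefSeq starts the one nearest the GENCODE 5′ end was used.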

Additional observations from a re-analysis of the deposited data

How the results depend on the processing

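Detected genes numbered 23986 at a minimum of 1 count and 7427 without genes whose exons overlap another gene's, against 14579, and protein-coding genes 5759 without overlap, against 11656. Per exonic length, the shares were 62.4% for nuclear protein-coding, 32.0% for mitochondrial and 1.99% for long noncoding genes, and 3.68% and 12.8% for the first 10 and 100 nuclear protein-coding genes. Without mitochondrial genes they were 97.3%, 1.88%, 5.25% and 17.2% for nuclear protein-coding, long noncoding, first 10 and first 100 genes. At a minimum of 30 counts, members detected fell to 2 smooth muscle, 4 neuronal, 1 kidney and Mullerian and 1 aquaporin gene, and at 1 TPM to the same numbers. Keratins fell to 4, urothelial label markers to 4 and mucins to 0 at 30 counts, and mucins to 0 at 1 TPM, where cancer-testis antigens rose to 5. The other 67 of 80 list counts stayed within 1.5 times. Ranked by CPM, 88.0% of promoters at 10 to 100 were CG-rich. With median transcript length, levels of 523 named genes were 0.272 to 14.4 times those printed. No paired analysis was possible because there is 1 sample.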

Other observations

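Genes of the core machinery that every cell uses were detected in 507 of 528 cases (96%), with a median of 65.4 TPM. Cytosolic ribosomal proteins had a median of 348 TPM, the chaperonin 289 TPM, the proteasome 111 TPM, complex I 54.9 TPM and Mediator 23.5 TPM. Against that, 50 members stood under 10% of the median of their group, and 24 of those have over 50% of their coding bases in exons of another gene. Of all 528 core members, 44 have such overlap. EIF4A1, the helicase of translation initiation, had 116 counts (4.16 TPM, 86.8% of coding bases shared). The proteasome subunits PSMA2 and PSMA6 had 115 and 141 counts (97.1% and 70.4% shared), and the Mediator subunit MED17 had 156 counts (85.2% shared). Among core genes with over 50% of coding bases shared on the same strand alone, the median of 37 genes was 5.55 TPM. For 4 core genes with such overlap on the opposite strand alone it was 50.8 TPM, and for 372 without overlap 82.9 TPM. Over all protein-coding genes the medians were 0.0529 TPM for 1188 genes with such overlap on the same strand alone, 0.809 TPM for 202 on the opposite strand alone and 3.47 TPM for 14382 without overlap. Tissue-restricted copies such as RPL3L and ATP6V0A4 (2 and 3 counts) also stood low, and their coding bases are not shared.

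Long stretches of neighbouring protein-coding genes had 3 counts or fewer each. On chromosome 11, from 48216810 to 57237314 (GRCh38), 66 consecutive genes had 0 counts in all, and 57 of them are olfactory receptors. On chromosome 1, from 152084144 to 153460701, the 53 genes of the epidermal differentiation complex from TCHHL1 to S100A7 had 2 counts in all, among them 19 LCE and 11 SPRR genes of the cornified envelope. On chromosome 21, from 30165564 to 31038476, 35 genes had 0 counts, and 33 of them encode hair keratin-associated proteins. The pseudogene with the most counts was MTATP6P1, a nuclear copy of mitochondrial ATP6, with 37506 counts, against 116299 for MT-ATP6; how many of its reads stem from MT-ATP6 was not tested.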
